A study of Mus musculus with 2 samples.

Results

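The replication-dependent histone genes are the genes that supply the histone proteins packed around newly copied DNA. They were taken as the protein-coding genes of GENCODE vM21 whose symbols begin with Hist1h, Hist2h, Hist3h or Hist4h, and 67 of the 21668 protein-coding genes on chromosomes 1 to 19 and X met that rule. By histone type they comprised 6 H1, 18 H2A, 18 H2B, 12 H3 and 13 H4 genes. By position they formed 5 clusters. The Hist1 genes on chromosome 13 fell into a proximal block of 23 genes and a distal block of 31 genes, Hist2 on chromosome 3 held 10 genes, Hist3 on chromosome 11 held 2 and Hist4 on chromosome 6 held 1. Chromatin accessibility at these genes was read from DNase-seq, which maps where the enzyme DNase I cuts exposed DNA, in midbrain of B6NCrl mouse embryos at embryonic day 11.5. The series held 1 group of 2 biological replicates, each with male and female embryos pooled, and no control, input, treated or second-tissue sample. The tissue was used whole, so every value is an average over all cell types of the dissected midbrain.

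Replication-dependent histone genes are transcribed in S phase, when dividing cells duplicate their chromatin. Most have no introns, and their mRNAs end in a stem-loop bound by SLBP instead of a poly(A) tail. NPAT, a target of cyclin E and CDK2, gathers on the clusters in nuclear histone locus bodies, and H2A and H2B genes often stand back to back around a shared promoter. Hist1h1t, Hist1h2aa and Hist1h2ba encode the histones H1T, TH2A and TH2B, which belong to male germ cells.

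The sequence just before the start of 10 genes is shown, to set the strongest open promoters beside germ-cell promoters without a peak and beside promoters in near-identical copies, where no peak was listed and the state cannot be told. Each is given 5′ to 3′ on the gene's own strand, from the reference genome GRCm38 (mm10), and stops at the base before the annotated start. Capitals mark the motifs searched, on either strand: the core promoter box TATAAA, the NF-Y motif CCAAT, the octamer ATTTGCAT bound by Oct-1, the H1 box AAACACA and the core GGTCCG of the H4 element bound by HINFP. The first 5 are, for each histone type, the gene with the highest mean percentile of peak signal over the replicates, at chr13:23622559-23622708 (minus strand), chr11:58954535-58954684 (plus), chr3:96269602-96269751 (plus), chr13:23562370-23562519 (minus) and chr13:23761231-23761380 (minus).
Hist1h1e: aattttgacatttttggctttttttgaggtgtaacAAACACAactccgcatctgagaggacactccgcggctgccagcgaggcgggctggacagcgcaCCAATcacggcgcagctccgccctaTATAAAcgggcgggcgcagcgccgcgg
Hist3h2a: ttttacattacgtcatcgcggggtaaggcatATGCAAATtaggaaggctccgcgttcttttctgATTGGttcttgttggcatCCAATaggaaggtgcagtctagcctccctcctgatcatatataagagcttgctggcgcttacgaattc
Hist2h2bb: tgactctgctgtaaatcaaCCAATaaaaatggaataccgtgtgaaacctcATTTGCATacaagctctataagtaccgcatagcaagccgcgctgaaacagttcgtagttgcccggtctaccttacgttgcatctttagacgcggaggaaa
Hist1h3e: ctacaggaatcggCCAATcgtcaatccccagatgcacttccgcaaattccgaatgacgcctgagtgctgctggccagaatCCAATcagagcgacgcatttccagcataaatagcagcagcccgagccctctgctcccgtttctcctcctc
Hist1h4a: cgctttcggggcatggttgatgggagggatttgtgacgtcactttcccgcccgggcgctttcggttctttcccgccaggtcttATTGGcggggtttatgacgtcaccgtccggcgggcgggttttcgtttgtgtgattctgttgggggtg
The next 2 belong to testis-specific genes without a peak, at chr13:23695664-23695813 (plus) and chr13:23934157-23934306 (minus).
Hist1h1t: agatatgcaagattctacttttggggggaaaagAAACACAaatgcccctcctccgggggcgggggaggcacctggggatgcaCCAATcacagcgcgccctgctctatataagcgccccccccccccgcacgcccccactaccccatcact
Hist1h2ba: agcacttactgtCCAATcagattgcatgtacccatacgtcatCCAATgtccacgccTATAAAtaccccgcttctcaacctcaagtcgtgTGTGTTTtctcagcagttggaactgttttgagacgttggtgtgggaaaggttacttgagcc
The last 3 precede genes that lie in repeated copies, at chr13:21811596-21811745 (plus), chr13:21832197-21832346 (minus) and chr3:96246535-96246684 (plus). Of the 150 bases shown for Hist1h4m and Hist1h4n, 0 differed between the genes.
Hist1h4m: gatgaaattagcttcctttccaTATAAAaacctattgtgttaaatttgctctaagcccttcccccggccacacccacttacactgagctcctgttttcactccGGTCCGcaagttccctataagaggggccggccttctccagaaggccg
Hist1h4n: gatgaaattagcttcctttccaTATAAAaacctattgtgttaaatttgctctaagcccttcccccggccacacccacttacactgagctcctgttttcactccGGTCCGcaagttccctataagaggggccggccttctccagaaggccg
Hist2h3c1: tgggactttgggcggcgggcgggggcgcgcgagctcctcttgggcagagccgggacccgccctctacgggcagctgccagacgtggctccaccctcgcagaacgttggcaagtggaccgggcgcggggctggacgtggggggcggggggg

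Peaks were 150 bp wide, and each carried the authors' signal value, a whole number with no stated normalization. Over the chromosomes used there were 305818 peaks in replicate 1 and 454408 in replicate 2. Their median signals were 18 and 8. The lists give no read totals, so depth is unknown and no counting interval is given. The replicates were sequenced on different sets of Illumina instruments, per the labels, and an instrument effect and a replicate effect cannot be told apart. Markers were read in the same way at start sites. A peak in both replicates was found for 7 of 8 midbrain genes, 3 of 3 progenitor genes, 3 of 3 neuron genes and 3 of 3 proliferation genes (Mcm2, Mki67 and Pcna), against 0 of 4 erythroid, 0 of 3 microglial, 1 of 3 endothelial, 1 of 3 mesenchymal and 2 of 3 germ cell genes. The share over all protein-coding genes was 65.5%. Of the germ cell genes, Sycp3 counted as open with signals of 14 and 11, Dazl had 123 and 76, and Ddx4 had no peak.

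Most histone genes had open start sites. A peak lay within 500 bp of a transcription start site in 55 of 67 genes in replicate 1, where 68.0% of all protein-coding genes had one, and in 56 of 67 in replicate 2, where 69.5% did. The mean over the replicates was 82.8% ± 1.06 (SD, n = 2). The same 55 genes, 82.1%, were open in both replicates, against 65.5% of all genes. A further 11 had no peak in either replicate, 16.4% of the members against 28.1% of all genes, and Hist1h1d had a peak in replicate 2 only. By type, 4 of 6 H1, 15 of 18 H2A, 15 of 18 H2B, 10 of 12 H3 and 11 of 13 H4 genes were open in both. By cluster, the counts were 17 of 23 in the Hist1 proximal block, 27 of 31 in the distal block, 8 of 10 in Hist2, 2 of 2 in Hist3 and 1 of 1 in Hist4. With 1 group and 2 replicates no test between groups was possible, and all comparisons here are descriptions.

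**Figure D1:**
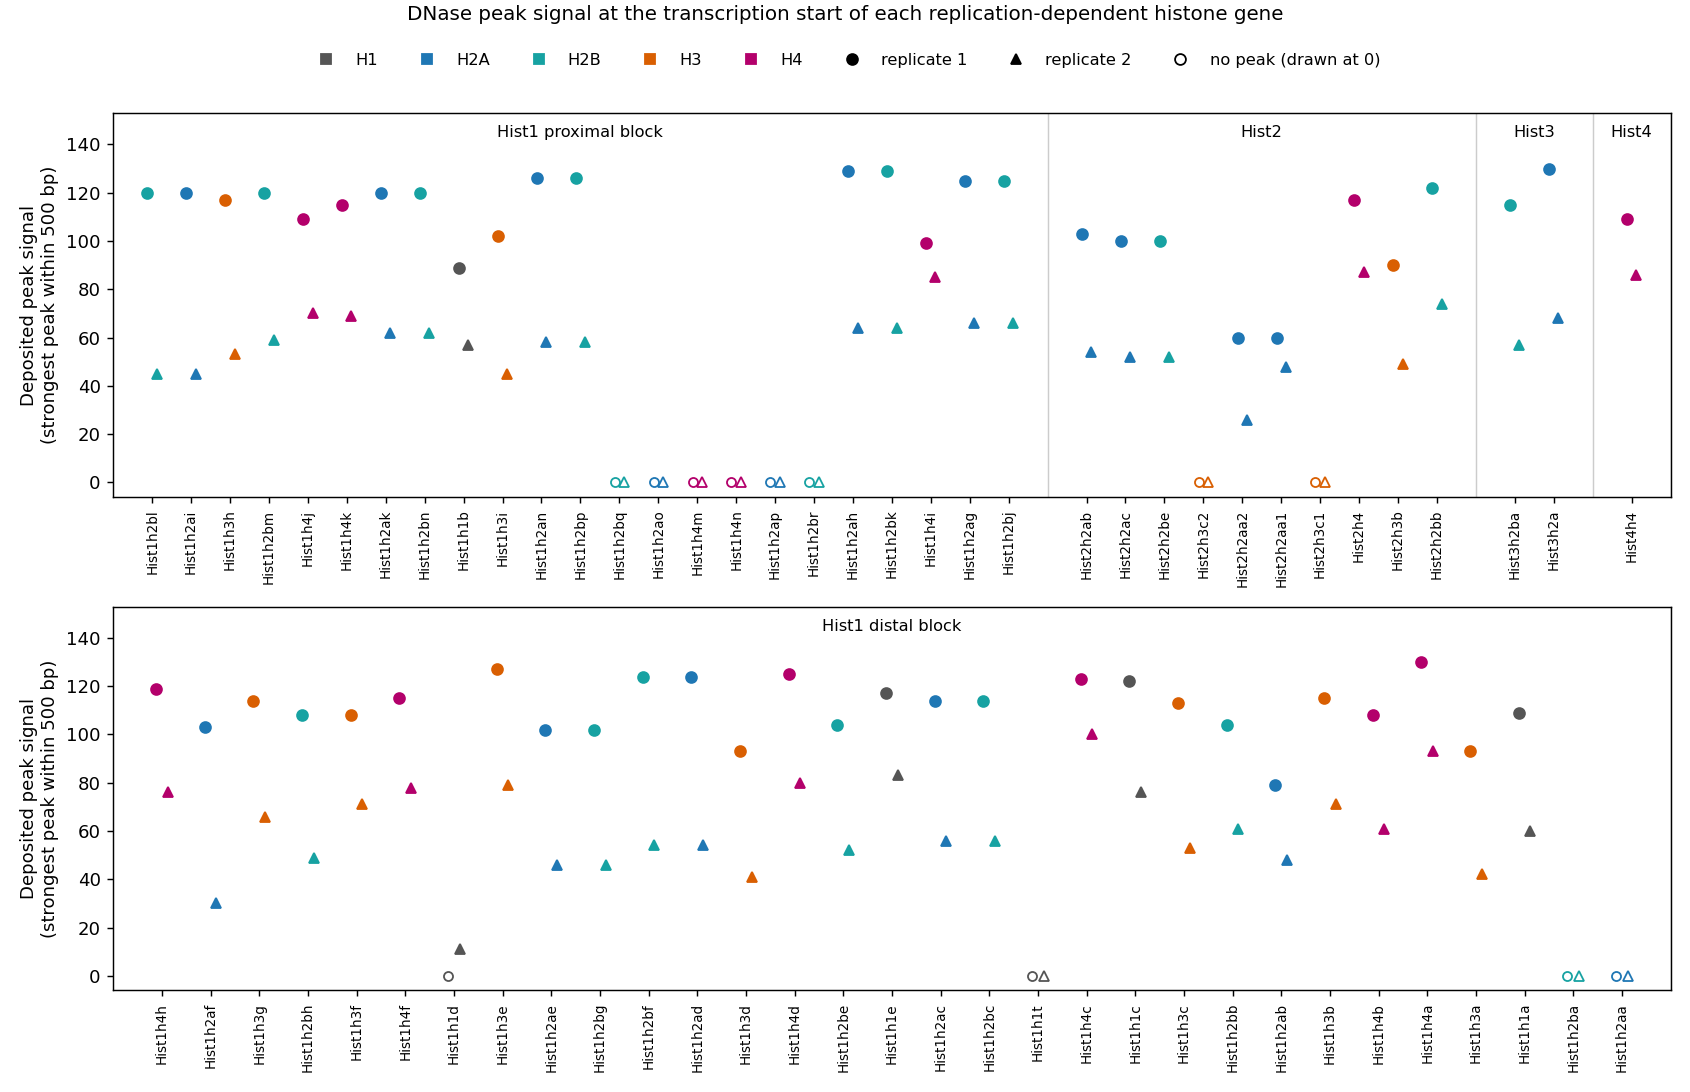
Signal of the strongest peak within 500 bp of each histone gene's start (vertical axis, deposited units), with the genes in chromosome order within each cluster. Circles are replicate 1, triangles replicate 2, colours the histone types, and open symbols at 0 mark genes without a peak. The 6 genes without a peak in the Hist1 proximal block stand next to each other, and the 3 testis-specific genes have none in the distal block.

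The genes without a peak fell into separate kinds. The first kind was the 3 testis-specific genes, all closed in both replicates, while 55 of the other 64 members were open in both. Their sequence was readable. Of the 32-base words within 500 bases of the start, 100% occurred once in the genome at Hist1h1t, 95.1% at Hist1h2aa and 82.4% at Hist1h2ba. Hist1h1t lies among open genes of the distal block. The nearest peak to its start was 1469 bp away in replicate 1, with a signal of 11, and 1722 bp away in replicate 2, with a signal of 35. Hist1h2aa and Hist1h2ba form a divergent pair 306 bp apart at the far end of the same block. They lay in a stretch of 23730 bp (chr13:23925966-23949695) with no peak in either replicate, the longest such stretch of the distal block with its flanks, and 94.3% of the words in it were unique.

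The ratio of observed to expected CpG dinucleotides in the same window, which is high at most open promoters, was 0.649 at Hist1h2aa, 0.681 at Hist1h2ba and 0.438 at Hist1h1t. Of the 2572 protein-coding genes with a ratio of 0.6 to 0.7, 95.8% were open in both replicates, and of the 1359 with a ratio of 0.4 to 0.5, 74.7% were. The testis pair was therefore closed at a CpG ratio at which most genes were open, and it was inside the range of the 55 open members (0.521 to 1.10). The 250 bases before the starts of the 3 testis genes held CCAAT in 3, TATAAA in 2, the octamer in 2 and the H1 box in 2, so these letters were present at closed and open members alike. Germline histone and protamine genes outside the clusters had CpG ratios of 0.185 to 0.447, below those of the testis pair, and the median over all genes without a peak was 0.161. None of 10 measured genes, among them H1foo, H1fnt, Prm1, Prm2 and Tnp2, had a start-site peak in both replicates, against 65.5% of all genes. That share covers all CpG ratios, and the median ratio of genes open in both was 0.723. A share for genes matched to these 10 in CpG ratio was not computed. Hils1 had a weak peak in replicate 1 only (signal 10) and Tnp1 in replicate 2 only (signal 11).

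The second kind was 8 genes in repeated DNA. Hist1h2bq, Hist1h2ao, Hist1h4m, Hist1h4n, Hist1h2ap and Hist1h2br lie side by side in the proximal block, and Hist2h3c1 and Hist2h3c2 lie in Hist2. They encode ordinary H2A, H2B, H3 and H4 proteins. Between 0 and 3.81% of the words around their starts were unique. Over the promoter of 300 bases, Hist1h2bq shared 99.3% of its words with Hist1h2br, Hist1h4m shared 94.4% with Hist1h4n, and Hist2h3c1 shared 82.5% with Hist2h3c2. The 6 proximal genes lay in peak-free stretches of 26350 bp and 17090 bp, in which 7.90% and 3.56% of words were unique.

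Low uniqueness went with missing peaks throughout the annotation. Of 660 protein-coding genes with under 10% unique words at the start, 2 had a peak in both replicates and 653 had none in either. Their median CpG ratio was 0.155, near the 0.161 of all genes without a peak, so low CpG content goes with this count too. Of 11759 genes with a CpG ratio of at least 0.521, 11442 were open in both replicates. Without those under 10% unique words, 11685 such genes remained, of which 11440 were open in both. Of the 1 kb bins over the clusters, 45 of 427 in the proximal block, 9 of 503 in the distal block and 9 of 150 in Hist2 had under 10% unique words, and these bins held 0 peaks in either replicate. How the authors treated reads that match several places was not stated in the labels or files used, so whether these 8 promoters were open cannot be told from the lists. Leaving the 8 genes out, 55 of 59 members (93.2%) were open in both replicates. Of the 56 that were neither testis-specific nor under 10% unique, 55 (98.2%) were open in both and Hist1h1d in replicate 2. Every gene left out in these ways had no peak, so these shares could only rise. Among all genes with a CpG ratio of at least 0.521 and 10% or more unique words, 97.9% were open in both. That bound is the lowest ratio of the 55 open members. The 2 sets are not matched, because the bound keeps germline genes such as the testis pair and drops Hist1h1d, whose ratio was 0.115.

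**Figure D2:**
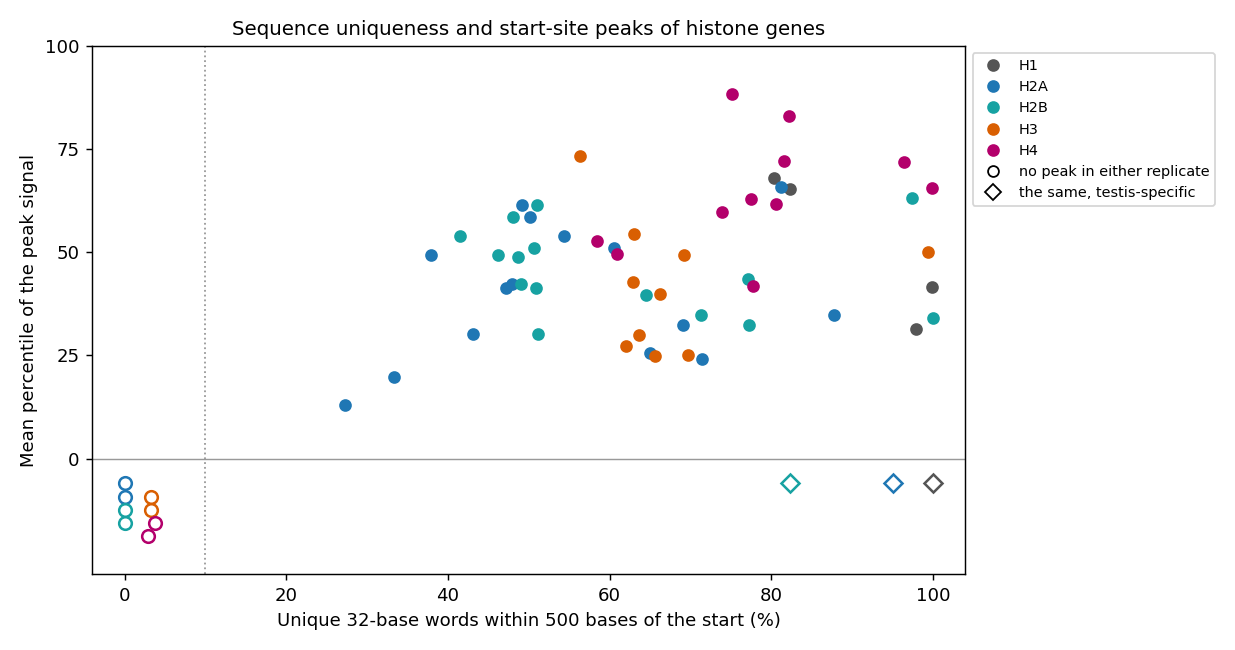
Share of 32-base words found once in the genome around each start (horizontal axis, %) against the mean percentile of the peak signal over both replicates (vertical axis), for the 55 members open in both. Open symbols below the 0 line are the 11 members without a peak, stacked where they coincide, and the dotted line marks 10% unique words. The 8 members without a peak that are not testis-specific lie left of the dotted line, and the 3 testis-specific genes (diamonds) lie above 80%.

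Hist1h1d encodes the linker histone H1.3, and its call depended on which annotated start was used. At the GENCODE start the only peak was one of signal 11 in replicate 2, centred at -391.5 bp (negative is upstream), inside a hotspot of 61 bp. The RefSeq start lies 1770 bp downstream, and there the strongest peak had a signal of 93 in replicate 1 and 63 in replicate 2. The GENCODE start of Hist1h2be likewise lies 35168 bases before its start codon. At that GENCODE start the strongest peaks had signals of 104 and 52. It lies inside the Hist1h1e gene, and the widest hotspots at both genes measured 2145 and 1908 bp. These peaks therefore cannot be assigned to Hist1h2be. At the start codon of Hist1h2be the strongest peaks had signals of 107 and 71. For Hist1h3f the distance was 433 bases. The strongest peaks reaching within 500 bp of the GENCODE start had signals of 108 and 71, and those at the start codon 107 and 71. The peak of 108 was centred at -561.5 bp, at the position of the strongest replicate 1 peak of Hist1h2bh. The replicate 2 peak of 71 was centred at 398.5 bp, near the start codon. RefSeq gave a start for 61 of the 67 genes, within 100 bp of the GENCODE start for 60, and 51 of the 61 were open in both replicates at the RefSeq start.

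The strength of open histone promoters was near the middle of all genes in replicate 1 and below it in replicate 2. Their strongest peaks had signals of 60 to 130 with a median of 115 in replicate 1, and of 11 to 100 with a median of 58.5 in replicate 2. The medians over all protein-coding genes with a peak were 112 and 68. Ranked among those genes within each replicate, the members' median percentile was 54.3 in replicate 1 and 34.9 in replicate 2. The number above the median gene was 32 of 55 in replicate 1 and 16 of 56 in replicate 2, and 0 and 2 genes were in the top 10%. Over the 55 genes open in both, the percentile in replicate 2 minus that in replicate 1 had a median of -10.8, against 1.63 over all genes open in both. The rank correlation between replicates was 0.545 over the 55 members and 0.782 over 14190 genes, given as a description, since divergent genes share peaks.

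The histone types differed in which replicate ranked them higher. H4 genes, whose protein is the partner of H3 in the nucleosome core, had a median signal of 115 in replicate 1 and 80 in replicate 2, with median percentiles of 54.3 and 73.0. In replicate 2, 10 of 11 H4 genes were above the median gene. H2A genes had medians of 114 and 54 (percentiles 52.9 and 29.4), H2B genes 120 and 57 (62.4 and 33.0) and H3 genes 110.5 and 53 (48.4 and 28.2). In replicate 2, 0 of 15 H2A, 1 of 15 H2B and 3 of 10 H3 genes were above the median gene. H1 genes, whose proteins bind the linker DNA, had medians of 113 over 4 genes in replicate 1 and 60 over 5 genes in replicate 2 (51.9 and 36.9). The added gene in replicate 2 was Hist1h1d with a signal of 11, and over the same 4 genes the median percentiles were 51.9 and 50.9. From replicate 1 to replicate 2 the median change of percentile was 12.03 for H4, -22.7 for H2A, -21.3 for H2B, -10.4 for H3 and 1.16 for H1. The percentile was higher in replicate 2 for 9 of 11 H4, 1 of 15 H2A, 0 of 15 H2B, 2 of 10 H3 and 2 of 4 H1 genes. The place of H4 above the other types therefore held in replicate 2, while in replicate 1 the H2B median was higher.

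The share of unique words moved with type. Its median around the start was 77.5% for H4, 63.3% for H3, 51.0% for H2B, 49.6% for H2A and 98.9% for H1. Over the 55 open members the rank correlation of that share with the signal percentile was -0.148 in replicate 1 and 0.413 in replicate 2. Within types its sign was mixed. In replicates 1 and 2 it was 0.233 and 0.378 for H2A, and 0.215 and 0.536 for H4. For H2B it was -0.605 and -0.164, for H3 -0.316 and -0.189, and over 4 H1 genes -0.6 and -0.8. The pooled values therefore mix in differences between types. The members share libraries and in part peaks, and the part of uniqueness in the order of the types was not tested.

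**Figure D3:**
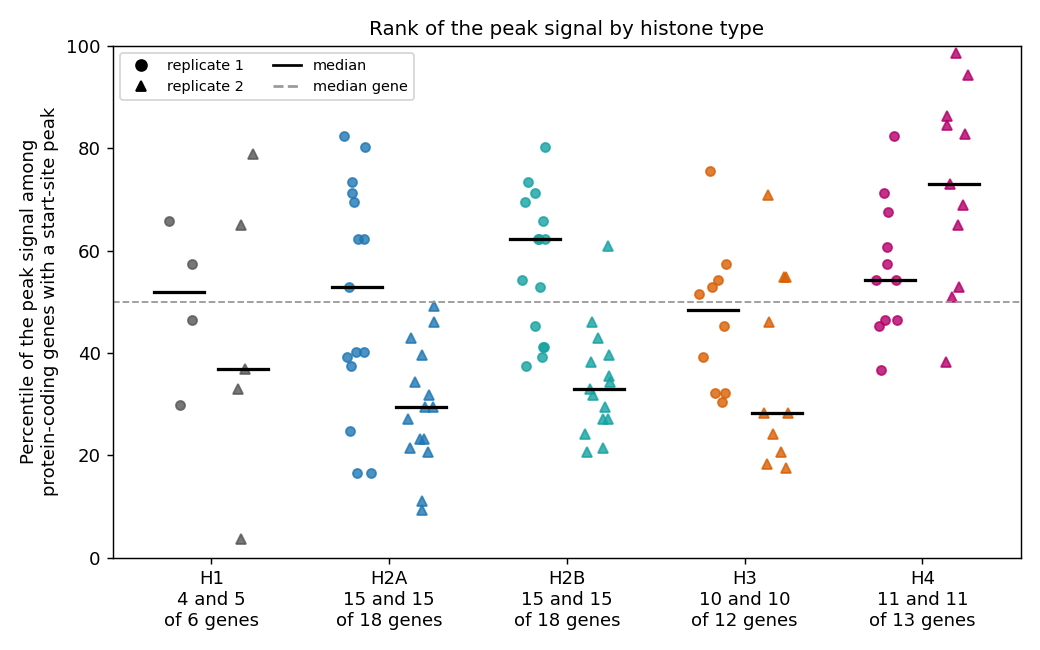
Percentile of the strongest start-site peak among all protein-coding genes with such a peak in the same replicate (vertical axis), by histone type, with circles for replicate 1, triangles for replicate 2 and black bars for medians. The numbers under each type are genes with a peak in replicate 1 and in replicate 2. The H4 median is 54.3 in replicate 1 and 73.0 in replicate 2, and those of H2A, H2B and H3 lie at 28.2 to 33.0 in replicate 2.

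Of the 10 members with the highest mean percentile, 5 were H4 genes. Hist1h4a had signals of 130 in replicate 1 and 93 in replicate 2, and Hist1h4c had 123 and 100, the highest member value of replicate 2. The third was the H3 gene Hist1h3e with 127 and 79, followed by Hist1h4d with 125 and 80 and Hist2h4 with 117 and 87. Next in order were the H1 gene Hist1h1e (117 and 83), Hist3h2a (130 and 68), Hist4h4 (109 and 86), a single gene on chromosome 6, the H1 gene Hist1h1c (122 and 76) and Hist2h2bb (122 and 74). Hist3h2a shares its start with Trim17, a ubiquitin ligase gene, so its peak cannot be assigned to 1 of them. At Hist4h4 the strongest peak of replicate 1 was centred at 544.5 bp, downstream of the start, and that of replicate 2 at -35.5 bp.

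The weakest open member of each type was, for H4, Hist1h4b with signals of 108 and 61. Hist1h1b had 89 and 57, the lowest of the H1 genes open in both, and Hist1h3d had 93 and 41, the lowest of H3. Hist1h2bg, with 102 and 46, was lowest of H2B and shares its peak with Hist1h2ae. The lowest of all was Hist2h2aa2 with 60 and 26, next to its near copy Hist2h2aa1 with 60 and 48. Their strongest peaks were centred between -326.5 and -286.5 bp, upstream of the start, and in the 250 bases before their starts 12.8% and 22.8% of words were unique. The other Hist2 genes had intermediate values, with Hist2h2ab at 103 and 54, the pair Hist2h2ac and Hist2h2be at 100 and 52, and Hist2h3b at 90 and 49. Hist3h2ba, the other Hist3 gene, had 115 and 57.

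H2A and H2B genes in divergent pairs had peaks in common. There were 12 divergent pairs with starts within 500 bp of each other, all of 1 H2A and 1 H2B gene, and they held 24 of the 36 H2A and H2B genes. The starts were 176 to 306 bp apart, with a median of 259.5 bp. In 9 pairs both genes were open in both replicates, and in each of these 9 the same peak was the strongest for both genes in both replicates. At such spacing the windows of 500 bp around the starts overlap over most of their length, so a common strongest peak is largely built in. The share among other divergent genes was not computed. The pair Hist1h2ah and Hist1h2bk had the highest such signal, 129 in replicate 1 and 64 in replicate 2. The other 3 pairs were the testis pair and the repeated pairs Hist1h2bq with Hist1h2ao and Hist1h2ap with Hist1h2br. Because of sharing, the members' strongest peaks were 45 distinct peaks in replicate 1 and 47 in replicate 2, and genes of a pair are not separate observations.

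Peaks sat upstream of histone starts. The midpoint of the strongest peak had a median of -90.5 bp in replicate 1 and -52.5 bp in replicate 2, against -33.5 and -13.5 bp over all genes. It was upstream for 89.1% and 78.6% of members, against 70.2% and 56.9% of all genes. These offsets depend on the annotated start, whose median distance to the start codon was 33 bp in members. Where RefSeq starts differed they lay mostly upstream, as at Hist1h2ak (85 bp), but at Hist1h3c the RefSeq start lay 81 bp downstream. The part of the annotation in the offsets was not tested. By type the median offsets in replicates 1 and 2 were -111.5 and -91.5 bp for H2A, -129.5 and -134.5 bp for H2B, -66.5 and -27.0 bp for H3, -62.5 and -36.5 bp for H4, and 15 and 2.5 bp for H1. Over the 18 open H2A and H2B genes in divergent pairs the medians were -131.5 and -128.5 bp. The 2 genes of a pair share a strongest peak, so their offsets together equal their spacing wherever that peak lies. These medians therefore do not show that peaks lie in the middle. In replicate 2 the offsets were -263.5 bp at Hist1h2ak and -32.5 bp at Hist1h2bn, whose starts are 296 bp apart. Over the 12 outside such pairs they were -97 and -35.5 bp.

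A second group of peaks lay beyond the short coding region. Between 200 and 300 bp after the start, 3.64% of the 55 open members had a peak midpoint in each replicate, against 11.3% and 12.6% of all open genes. Between 400 and 500 bp it was 29.1% and 36.4% of members, against 14.0% and 11.4%. In these members 21.5% of words were unique in the 200 to 300 bp bin and 82.3% at 400 to 500 bp, while all open genes had 97.7% and 97.9%. The dip in peaks thus coincided with coding sequence that many copies share, and its part in the dip was not tested. A peak other than the strongest one lay within 75 bp of the transcript end in both replicates for 25 of the 55 members, 45.5%, against 1.62% of all open genes. The median member spans 539 bp, and among 70 other open genes of 300 to 1000 bp the share was 10%. Peaks of neighbouring histone genes enter these counts.

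**Figure D4:**
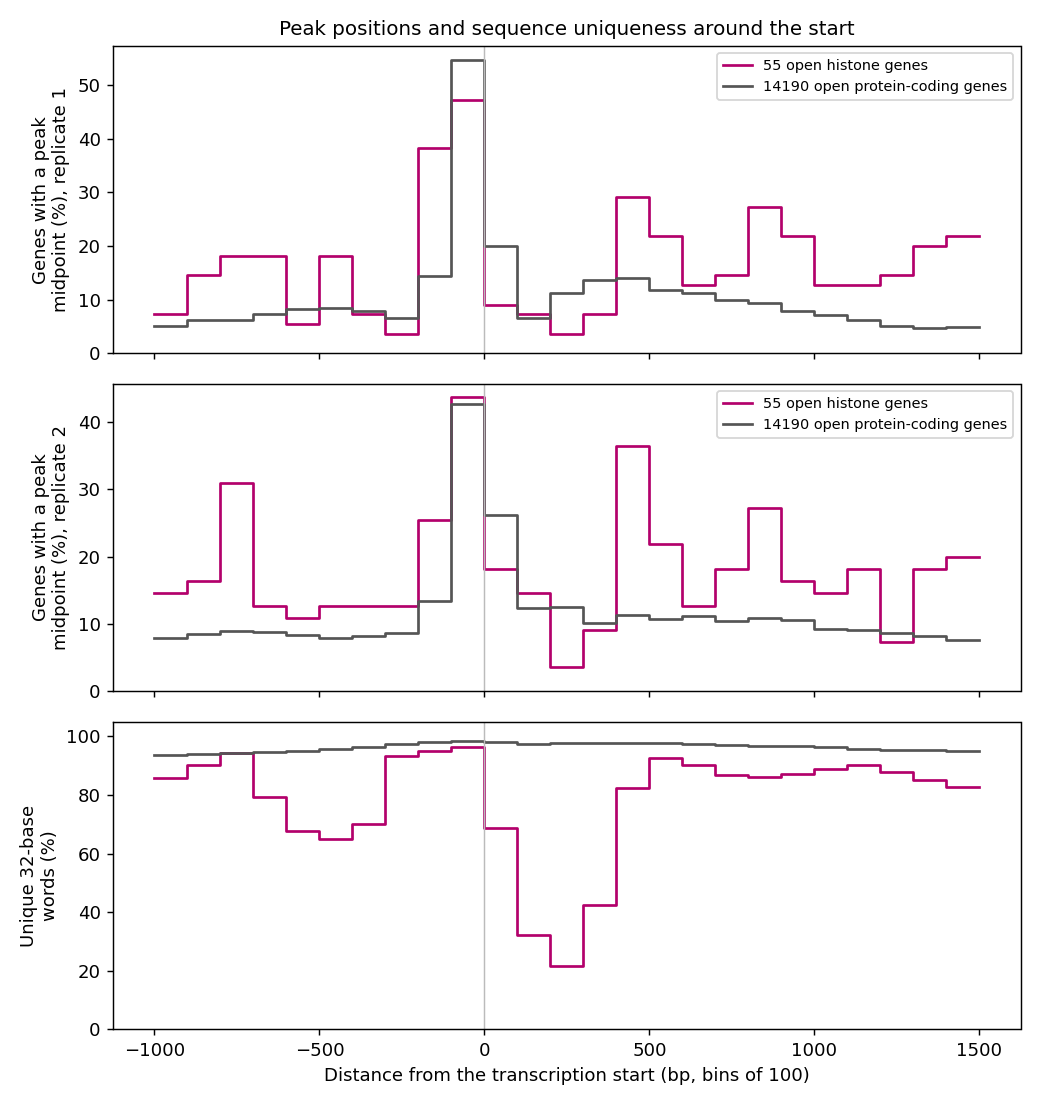
Percent of genes with a peak midpoint in each 100 bp bin around the start, in replicate 1 (top) and replicate 2 (middle), and mean percent of unique 32-base words in the same bins (bottom), for 55 histone genes and 14190 protein-coding genes open in both replicates. Negative distances are upstream. The histone line drops to 3.64% at 200 to 300 bp in both replicates, where 21.5% of words are unique, and rises again at 400 to 500 bp.

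Hotspots, the authors' broader enriched regions, were narrower at histone starts than at other genes. The widest hotspot within 500 bp had a median width of 834 bp in replicate 1 and 996 bp in replicate 2 over the 55 open members, against 1023 and 1556 bp over all genes with a peak in both replicates. H1 genes stood at 2074 bp over 4 genes in replicate 1 and 1908 bp over 5 genes in replicate 2. The added gene was Hist1h1d, with a hotspot of 61 bp. In replicate 2 the 4 H1 genes open in both had widths of 1660, 1908, 2789 and 3143 bp. H2A genes stood at 702 and 741 bp. The −log10 q value of the hotspot, in column 9, was at its ceiling of 100 for 55 of 55 members in replicate 1 and 54 of 56 in replicate 2, so it gave no order among them. Over the 55 open members hotspot width had a rank correlation of 0.448 and 0.569 with the share of unique words, as a description. Within types it was 0.482 and 0.707 for H2A, 0.450 and 0.546 for H2B, and 0.264 and 0.346 for H4. For H3 it was 0.0909 and 0.103, and over 4 H1 genes -0.4 and 0.8. The pooled values therefore mix in differences between types. The part of uniqueness in these widths was not tested.

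The promoters shared motifs by type. In the 250 bases before the start, on either strand, CCAAT was found in 54 of 67 members (80.6%) against 35.8% of all promoters, and 46 members (68.7% against 11.1%) held at least 2 copies. All 18 H2A and all 18 H2B genes held CCAAT, against 4 of 13 H4 genes. TATAAA was found in 34 members (50.7% against 11.4%). The octamer ATTTGCAT was found in 7 H2A and 8 H2B genes and in no member of another type (22.4% of members against 1.45%). GGTCCG was found in 12 of 13 H4 genes and in 2 other members (20.9% against 8.10%), and the H4 gene without it, Hist1h4a, had the highest mean percentile. AAACACA was found in 4 of 6 H1 genes and in 4 other members (11.9% against 5.64%). Hist1h1d, counted without AAACACA, was searched before its GENCODE start, 1770 bp upstream of the RefSeq start. Hist1h2be, counted with CCAAT, was searched 35168 bases before its start codon. The bases before those later positions were not searched. The E2F motif TTTCGCGC was found in 4 H2A and 4 H2B genes (11.9% against 0.291%), and TTTGGCGC in 0 members against 0.558% of promoters. Divergent genes share the same upstream bases, and the near-identical copies Hist1h4m and Hist1h4n, whose state cannot be told, hold TATAAA and GGTCCG.

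The genes that make and process histone mRNA were open. All 21 measured had a start-site peak in both replicates, against 65.5% of all genes, with median percentiles of 77.8 and 76.9. Npat had signals of 135 and 102, Slbp 133 and 92, Hinfp 134 and 85, Pou2f1 (Oct-1) 130 and 97, and Casp8ap2 (FLASH) 136 and 82. All 11 replication-independent histone genes were open too, with median percentiles of 73.5 and 69.0. H3f3a and H3f3b, which encode H3.3, had 133 and 98, and 135 and 85, and H2afz, which encodes H2A.Z, had 133 and 78. All 10 histone chaperone genes were open, with Hjurp, the chaperone of CENP-A, at 148 and 130. Apart from Coil (0.0919) and H3f3b (0.247), the genes of these 3 lists had CpG ratios above 0.521, and 97.3% of all genes with a ratio of at least 0.521 were open in both replicates, so these counts are near that share.

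The clusters were dense in peaks. With 50 kb on both sides, the Hist1 proximal block held 43.0 peaks per 100 kb in replicate 1 and 63.8 in replicate 2, the distal block 36.5 and 54.8, Hist2 31.9 and 37.9, Hist3 28.7 and 39.9, and Hist4 47.6 and 21.4. The whole genome held 11.6 and 17.3. Most cluster peaks were not at histone starts. In the proximal block 32 of 184 peaks in replicate 1 and 33 of 273 in replicate 2 were, and in the distal block 44 of 184 and 51 of 276. Hist4 went against the rest, with 49 peaks in replicate 1 and 22 in replicate 2. Of its 49 peaks, 43 were at no protein-coding or tRNA start, with a median signal of 7, and 14.3% of the 49 overlapped a peak of replicate 2.

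Many of the other Hist1 peaks lay at transfer RNA genes, which are short and transcribed by RNA polymerase III. RefSeq places 403 tRNA genes on these chromosomes, of which 48 (11.9%) lie in the Hist1 blocks with their flanks, 34 in the proximal and 14 in the distal block, and 0 lie in Hist2, Hist3 or Hist4. A peak lay within 500 bp of the start in both replicates for 46 of the 48, against 66.5% of all tRNA genes. Their median signals were 68 and 50 in the proximal block and 72 and 51 in the distal block. Of peaks away from protein-coding starts, 65 and 66 lay near a tRNA gene in the proximal block and 25 and 24 in the distal block. More lay near neither kind of start, with 80 and 163 in the proximal block and 112 and 195 in the distal block.

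The strongest shared peaks away from histone starts had annotated neighbours. In the distal block these were a peak of signals 107 and 71 (chr13:23585936-23586085) at the start codon of Hist1h2be, a peak of 100 and 76 (chr13:23526496-23526645) whose centre was 42 bp from the start of a tRNA-Arg gene, and the peak of 93 and 63 (chr13:23554976-23555125) at the RefSeq start of Hist1h1d. In the proximal block they were a peak of 122 and 86 (chr13:22051016-22051165), 323 bp from a tRNA-Ser gene, the peak of the zinc finger gene Zfp184 with 126 and 75, and a peak of 95 and 70 that lay 60 bp from a tRNA-Asp gene. In Hist2 a peak of 119 and 73 (chr3:96278096-96278245) lay 8418 bp from Hist2h2bb inside the long noncoding RNA gene Gm42743, one of 111 and 73 at the splicing factor gene Sf3b4, and one of 106 and 41 lay 901 bp from the start of Hist2h4. In Hist3 they were at Zfp39 (132 and 92), at Rnf187 (115 and 78) and inside Trim17 (105 and 60). In Hist4 they were at Wbp11 (125 and 73) and at H2afj (114 and 76, and 31 and 28).

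The density was not even within the blocks. Between Hist1h1a and the testis pair, an interval of 169.4 kb without another histone gene, there were 15 peaks in replicate 1 and 33 in replicate 2, or 8.86 and 19.5 per 100 kb, near the genome values. Some neighbouring genes were closed in both replicates, such as the sodium phosphate transporter genes Slc17a1, Slc17a2 and Slc17a3 and the olfactory receptor genes Olfr1359 and Olfr1360. The pseudogene Hist1h2aj, next to the open gene Hist1h2bm, had peaks of 120 and 59 within 500 bp of its start. Hist1h2bm had the same values, so these peaks cannot be assigned to the pseudogene.

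**Figure D5:**
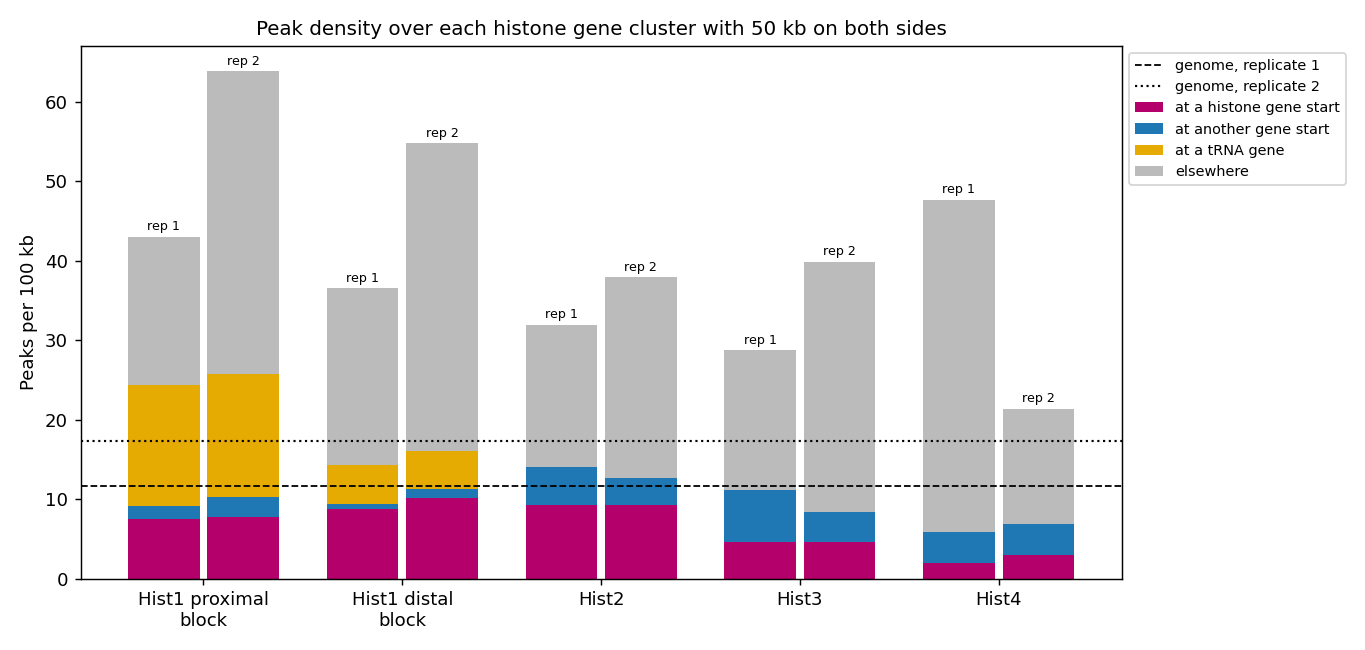
Peaks per 100 kb (vertical axis) over each cluster with 50 kb on both sides, in replicate 1 (left bar) and replicate 2 (right bar), divided into peaks within 500 bp of a histone gene start, of another protein-coding start, of a tRNA gene and elsewhere. The dashed and dotted lines are the genome values of 11.6 in replicate 1 and 17.3 in replicate 2. All bars lie above their replicate's line, and tRNA peaks appear in the Hist1 blocks only.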

How the data were processed

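DNase-seq peaks and hotspots of 1 group of 2 biological replicates were used. Per the labels, the authors deposited both lists for each replicate on mm10, from that replicate's own alignments. The name of the peak caller, like that of the aligner, is not given in the sources used here. Each deposited peak signal is the authors' own value, used only to describe and rank peaks within a list. The deposited hotspot value is a q-value on the −log10 scale.

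Rows on chromosomes 1 to 19 and X were kept, and repeated rows were counted once. Transcription starts came from the protein-coding genes of GENCODE vM21 (basic set), and a gene was open where a peak lay within 500 bp of any of them. The strongest such peak gave its signal and percentile. Clusters joined members at gaps of up to 500 kb. Uniqueness is the percent of 32-base words found once in GRCm38, on either strand. The read length is not known. RefSeq GRCm38.p6 gave tRNA genes and second starts. The counting of peaks at starts was tested on simulated data. Python 3.11.15, numpy 2.4.6, pandas 2.3.3, numba 0.67.0 and matplotlib 3.10.9 were used.

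The members, gene lists and motifs were chosen with earlier results of these data known. Named genes were the testis-specific members, those without a peak in 1 or both replicates, the 10 of highest mean percentile, the highest and lowest of each type, all Hist2, Hist3 and Hist4 genes, and the 3 strongest shared peaks away from members per cluster. Of the listed genes, H3f3c and Ars2 were not found by symbol. The tRNA, uniqueness and transcript-end descriptions were added after the data were seen. With 1 group no test was run, and depth is unknown.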

Additional observations from a re-analysis of the deposited data

How the results depend on the processing

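The percent of members open in both replicates, 82.1% with a 500 bp window, was 77.6% with 150 bp and 83.6% with 1000 bp, against 59.1% and 67.2% of all genes. It was 88.5% with each distinct promoter sequence counted once (54 of 61) and 83.6% with each group of starts within 500 bp counted once (46 of 55). Alternatives chosen after seeing the data gave 83.6% at RefSeq starts, 83.6% at start codons and 93.2% without members under 10% unique words. Leaving out each replicate in turn gave 82.1% to 83.6%. It was 82.1% with the stronger 50% of peaks, with hotspots and with all transcripts.

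The median percentile, averaged over the replicates, was 44.6, and 34.9 to 54.3 with 1 replicate left out. The peak density of the pooled clusters was 45.1 per 100 kb, 38.4 to 51.9 with 1 replicate left out, and 38.2 without peaks near tRNA genes. The median hotspot width over all members with a hotspot was 914.0 bp, 457.5 bp with a 150 bp window and 1124 bp with 1000 bp, and 834.0 to 994.0 bp with 1 replicate left out. All other alternatives moved these values by less than the SD between the replicates. That SD rests on 2 values and was wide for the percentile (13.7) and the density (9.57), so a small move against it says little. No paired analysis was possible because there is 1 group. Neither the depth behind a peak nor the treatment of reads with several matches is known, which limits what a missing peak shows in repeated sequence.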
